A study of Mus musculus with 9 samples.

Results

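Transcripts of endoplasmic reticulum (ER) chaperones and of the unfolded protein response were followed through loss of Xpc in mouse embryonic stem (ES) cells. The genes are 10, chosen by name for their known place in this response, with earlier results of these data known: Hspa5, Hsp90b1, Calr, Pdia4, Sdf2l1, Dnajb9, Edem1, Sel1l, Herpud1 and Xbp1. Every non-control probe that carried one of these names was taken from the scanner data, which gave 11 probes, 1 for each gene and 2 for Dnajb9. The 10 genes were detected well above background on each of the 9 arrays and belong to the 19909 genes tested. A level is the log2 of an array's processed signal minus the log2 of that array's 75th percentile, so it is read across arrays for 1 probe and not between probes.

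The study asked what loss of Xpc, a DNA damage recognition protein that also serves the stem cell factor Oct3/4, does to transcription in ES cells. Null arrays came from subcloned Xpc-null cells (labelled Xpc_KO). Induced arrays came from cells with a loxP-flanked Xpc gene (Xpc_f/f) taken 4 days after deletion by Cre was induced, labelled +Tx, an agent that the labels do not spell out. Floxed arrays came from Xpc_f/f cells without deletion, labelled -Tx. Each group had 3 arrays of total RNA, 1 sample each. The null cells are a subclone, so a difference of the null group from the others cannot be told apart from a property of the clone. No array held cells that were given the agent and kept Xpc, so agent and deletion cannot be told apart in the induced cells either.

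The unfolded protein response matches the folding capacity of the ER to the load of secretory proteins. Each of its 3 branches starts from a sensor in the ER membrane: Atf6, which is cut to release a transcription factor, Ern1 (Ire1), which splices Xbp1 mRNA into the form that makes an active factor, and Eif2ak3 (Perk), which slows translation and thereby raises Atf4 protein. Atf6 and Xbp1 act on genes of lumenal chaperones and of ER-associated degradation (ERAD), while Atf4 acts on amino acid supply and on stress genes such as Ddit3 and Trib3, also downstream of sensors outside the ER. Shortage of amino acids or haem and the presence of double-stranded RNA are known to feed into the same Atf4 branch.

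The promoters of the members differ in the elements through which these factors are known to act, and the stretches that carry such an element are shown because they hold the motifs that Atf6 is known to read. RefSeq promoter windows (assembly GRCm38.p6, 250 bases before to 50 after the start) were searched on both strands for the ER stress element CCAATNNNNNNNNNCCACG, the second ER stress element (ATTGG and CCACG with 1 base between them), the core TGACGTG of the unfolded protein response element and the C/EBP-Atf response element TGATGNAAT bound by Atf4 dimers. All 10 members matched a window, and capitals mark the first 2 of these motifs on either strand in the stretches below, written 5′ to 3′ on the strand of the gene.
Hspa5, chr2:34772005-34772063, plus strand: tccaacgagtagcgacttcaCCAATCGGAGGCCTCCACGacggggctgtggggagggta
Hsp90b1, chr10:86705513-86705676, minus strand: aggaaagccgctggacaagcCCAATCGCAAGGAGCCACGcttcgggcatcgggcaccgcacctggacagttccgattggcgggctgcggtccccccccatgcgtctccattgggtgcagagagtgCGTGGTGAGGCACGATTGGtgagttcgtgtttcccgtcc
Calr, chr8:84847055-84847113, minus strand: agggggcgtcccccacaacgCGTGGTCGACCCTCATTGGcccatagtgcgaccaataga
Herpud1, chr8:94386357-94386407, plus strand: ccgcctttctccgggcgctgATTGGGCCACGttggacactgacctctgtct

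The ER stress element stood in the windows of Hspa5 (65 to 47 bases upstream), Calr (162 to 144 bases upstream, antisense) and Hsp90b1, which had 1 sense and 1 antisense copy. Over all 32851 windows 39 held it, or 0.119%. The second element, in which the CCAAT part is inverted and lies closer to CCACG, stood in the window of Herpud1, 52 to 42 bases upstream. It stood in 12 windows in all (0.0365%). Hspa5 also held TGACGTG, as did 661 windows (2.01%), and in Hspa5 it did not overlap the ER stress element. The Atf4 element was in 317 windows (0.965%) and in 0 of the 10 members. Windows of Pdia4, Sdf2l1, Dnajb9, Edem1, Sel1l and Xbp1 held none of the 4 motifs in these exact letters, which says nothing about factors bound outside the window or to variant letters.

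Arrays stood on 3 slides, which were scanned separately. Slide 1 carried floxed arrays 1 and 2, slide 2 carried null array 3 beside floxed array 3, and slide 3 carried null arrays 1 and 2 with the induced group. Floxed array 3 stood apart from its group: over all genes its difference from the average of the other floxed arrays varied with an SD of 0.49, against 0.28 between floxed arrays 1 and 2. Its correlation across genes, which are not independent, was 0.993 with null array 3 and 0.986 with each other floxed array. The likeness was not only to its slide neighbour. On the axis of largest variation over all genes (47.3% of the variance) floxed array 3 stood at 24.1 and null arrays 1 to 3 at 29.1, 36.1 and 32.1. Floxed arrays 1 and 2 stood at -32.6 and -33.9 there, and induced arrays at -22.8, -17.4 and -14.9. On Xpc itself floxed array 3 lay with its label: the probe read -0.85, -1.53 and -1.36 on null arrays, -1.09, -0.67 and -1.05 on induced arrays and 0.59, 0.56 and 0.17 on floxed arrays, lower on each null and induced array than on any floxed array. Xpc fell by 1.68 in null cells (adjusted p = 0.00607), and the induced difference of -1.38 had an adjusted p of 0.223 over all genes, or -1.51 and 0.0316 without floxed array 3. Whether that probe lies in the deleted part is not given in the sources used here. All 10 ES cell markers checked, among them Pou5f1, Sox2 and Nanog, were above background on all 9 arrays. None of them passed in null cells (medians -0.11 against floxed and -0.23 against induced cells). In each comparison 2 of the 10 had an unadjusted p under 0.05, as had 4554 and 4740 of all 19909 genes. With floxed array 3 left out, 5 fell and 1 rose against floxed cells (median -0.34), where 24.9% of all genes passed, and 2 fell against induced cells, where 18.2% passed. The labels do not say that the 3 samples of a group are separate cultures, so p-values measure the spread between these samples, which may be technical, and their number limits the precision. In such bulk RNA fewer cells of a kind and less RNA per cell cannot be told apart.

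Among the members, Pdia4 and Sdf2l1 rose in null cells against floxed cells, Pdia4 rose and Herpud1 fell in null against induced cells, and no member passed between induced and floxed cells. Tests are limma's moderated tests, two-sided, with p-values adjusted by Benjamini-Hochberg across the 19909 genes and called under 0.05. Between null and floxed cells 2 of 10 members rose and 0 fell, where 1.84% of all genes passed (151 rose, 215 fell, or 41.3% rises, against 28.2% rises with arrays centred on their median). The null and floxed values did not overlap for 6 of 10 members, 5 of them higher and 1 lower in null cells, against 23.6% of all genes. Between null and induced cells 1 member rose and 1 fell, against 2.21% of all genes (133 rose, 307 fell), and 7 of 10 did not overlap, 5 higher and 2 lower, against 37.1% of all genes.

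Median differences over the members were 0.20 for null against floxed and 0.27 for null against induced cells, where the medians of all genes were 0.01 and 0.02. Both comparisons have the null arrays in common, and each comparison with floxed cells shares the floxed arrays. Between induced and floxed cells the member median was 0.01 and the differences ran from -0.10 to 0.31. Of the 10 members 0 passed and 0 had an unadjusted p under 0.05, against 1174 of all 19909 genes for the latter. In that comparison 0.00502% of all genes passed, which is 1 gene. No member's values were fully separate between induced and floxed cells, against 12.8% of all genes.

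**Figure D1:**
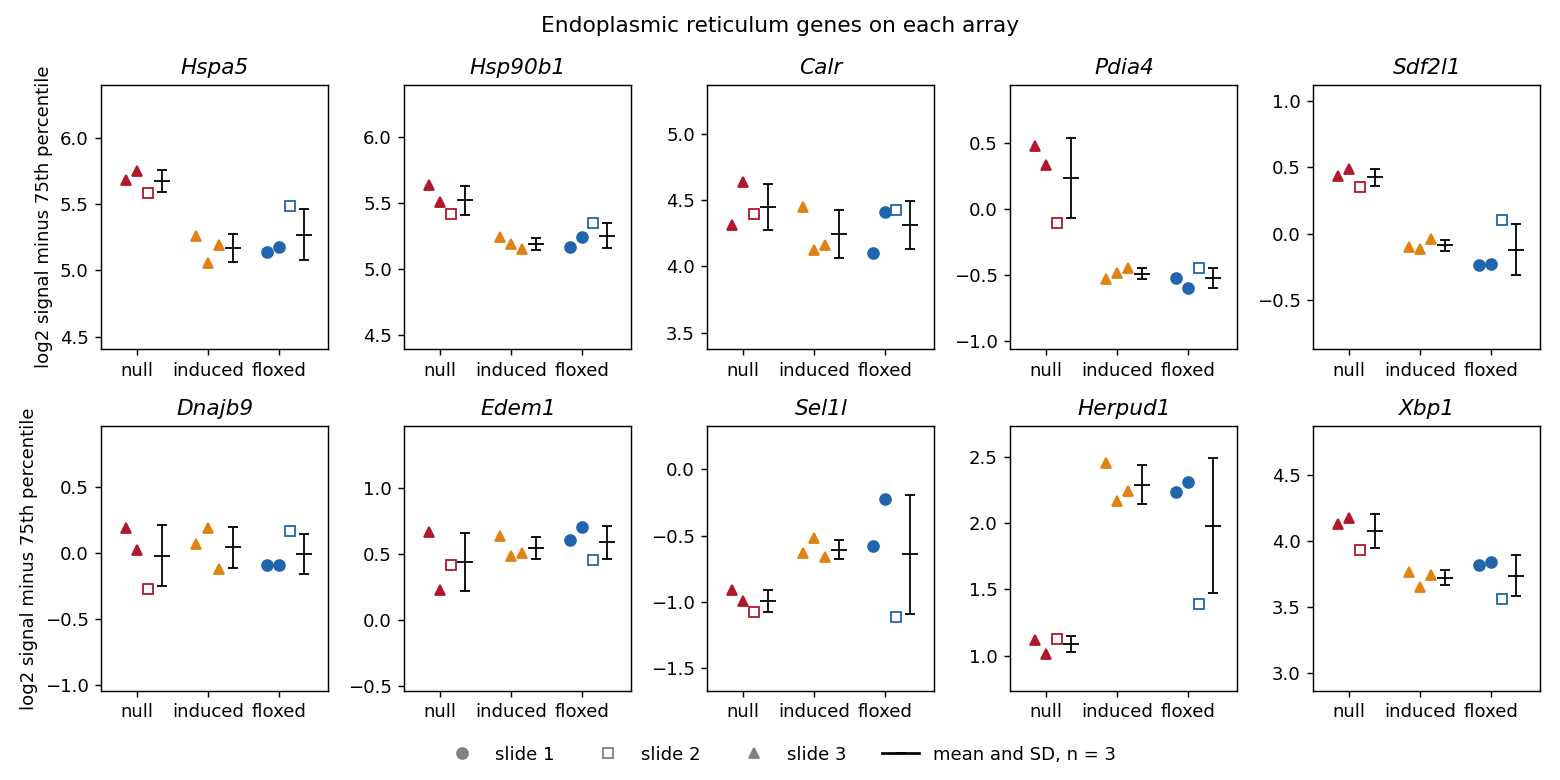
Level of each of the 10 genes on each array (log2 processed signal minus the array's 75th percentile, n = 3 arrays per group, black bar mean and SD). Points are coloured by group and shaped by slide. Null arrays lie above all others for Hspa5, Hsp90b1, Pdia4, Sdf2l1 and Xbp1 and below all others for Herpud1, and floxed array 3 (open square) stands apart for Herpud1 and Sel1l.

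Counts for the null cells turned on floxed array 3 and on the slides. Without floxed array 3, 6 of 10 members passed between null and floxed cells (Hspa5, Hsp90b1, Pdia4 and Sdf2l1 rose, Herpud1 and Sel1l fell), where 24.9% of all genes passed. In the same fit 7 of 10 passed between null and induced cells, where 18.2% of all genes passed, with Xbp1 added to the rises. A fit with slide as a fixed block reads the null against floxed difference from null array 3 and floxed array 3 alone and the null against induced difference from slide 3 alone. In that fit 0 of 10 members passed between null and floxed cells, against 0.251% of all genes, and 6 of 10 between null and induced cells (5 rose, 1 fell), against 16.2% of all genes. Member medians in the blocked fit were 0.056 and 0.30, and no slide held both induced and floxed arrays. Over all settings tried, Pdia4 passed against floxed cells in 9 of 22 alternatives and Sdf2l1 in 7, and centring arrays on their median ended both calls (0.77 and 0.56, adjusted p = 0.103 and 0.166). Against induced cells Herpud1 passed in 15 of 23 alternatives and Pdia4 in 13.

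Hspa5 encodes BiP, the Hsp70 chaperone of the ER lumen, which also holds the sensors inactive. Its probe read 5.68, 5.75 and 5.59 on null arrays 1 to 3, 5.26, 5.05 and 5.19 on induced arrays and 5.14, 5.18 and 5.49 on floxed arrays. Each null array lay above every induced and floxed array, and floxed array 3 came within 0.10 of its slide neighbour, null array 3. The null mean was 0.40 above the floxed mean (95% interval 0.13 to 0.67, 1.32-fold, adjusted p = 0.106) and 0.51 above the induced mean (0.24 to 0.77, 1.42-fold, adjusted p = 0.0669). Neither passed, and without floxed array 3 both did, at 0.51 (adjusted p = 0.00773) against floxed and 0.51 (adjusted p = 0.0073) against induced cells. Within slide 3 null arrays 1 and 2 lay 0.55 above the induced arrays, which passed with slide as a block (adjusted p = 0.0115).

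Hsp90b1, the lumenal Hsp90 (Grp94) that folds integrins and Toll-like receptors, had the same order of groups. Levels were 5.64, 5.51 and 5.42 on null arrays, 5.24, 5.19 and 5.15 on induced arrays and 5.17, 5.24 and 5.35 on floxed arrays. Null arrays were again the upper 3, with a gap of 0.07 between null array 3 and floxed array 3. Null cells exceeded floxed cells by 0.27 (0.05 to 0.48, adjusted p = 0.155) and induced cells by 0.33 (0.11 to 0.54, adjusted p = 0.103). These passed without floxed array 3, at 0.31 (adjusted p = 0.0423) and 0.33 (adjusted p = 0.032), and the difference within slide 3 was 0.38 (adjusted p = 0.0283 with slide as a block).

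Calr encodes calreticulin, the calcium-binding lectin that retains unfinished glycoproteins. It read 4.31, 4.64 and 4.40 on null arrays, 4.45, 4.12 and 4.16 on induced arrays and 4.10, 4.41 and 4.42 on floxed arrays. All 3 groups overlapped. Differences were 0.14 for null against floxed (-0.18 to 0.46, adjusted p = 0.587) and 0.20 for null against induced cells (-0.12 to 0.52, adjusted p = 0.406).

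Pdia4, a protein disulfide isomerase (ERp72) that works with BiP, had the largest rise of the members in both comparisons of null cells. It stood at 0.47, 0.33 and -0.11 on null arrays, -0.53, -0.49 and -0.45 on induced arrays and -0.53, -0.60 and -0.45 on floxed arrays. Every null array was above every other array, while null array 3 was nearer to them than null arrays 1 and 2. Means were 0.23 ± 0.30 in null, -0.49 ± 0.04 in induced and -0.53 ± 0.08 in floxed cells (SD, n = 3 each). The probe lies on the minus strand at chr6:47746516-47746575 of mm9 in the scanner data.

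Null exceeded floxed cells by 0.76 (0.43 to 1.08, 1.69-fold, adjusted p = 0.0398) and induced cells by 0.72 (0.40 to 1.05, 1.65-fold, adjusted p = 0.0436) for Pdia4. Without any 1 of null arrays 1 and 2, induced arrays 1 to 3 or floxed arrays 1 and 2 the first call ended, with differences between 0.64 and 0.76 and adjusted p between 0.0642 and 0.159, and leaving out each of the same 7 arrays in turn ended the second (0.60 to 0.74, adjusted p 0.057 to 0.159). Without null array 3 the difference from floxed cells was 0.93 (adjusted p = 0.0116) and without floxed array 3 it was 0.80 (adjusted p = 0.0104). Within slide 2 null array 3 exceeded floxed array 3 by 0.34 (adjusted p = 0.445 with slide as a block), and within slide 3 the difference of null from induced arrays was 0.89 (adjusted p = 0.00211).

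Sdf2l1 encodes a small ER protein that assists BiP together with J-domain cochaperones. On null arrays it read 0.43, 0.49 and 0.36, on induced arrays -0.10, -0.12 and -0.04, and on floxed arrays -0.24, -0.23 and 0.10. Null arrays were all higher than the rest, and floxed array 3 was the nearest to them, 0.33 above the mean of its group's other arrays. The rise over floxed cells was 0.55 (0.30 to 0.80, 1.46-fold, adjusted p = 0.0481). Against induced cells the difference of 0.51 (0.26 to 0.76, 1.43-fold) had an adjusted p of 0.0524 and did not pass.

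For Sdf2l1, leaving out any array other than floxed array 3 ended the call against floxed cells, with differences of 0.49 to 0.58 and adjusted p of 0.069 to 0.197. Without floxed array 3 the differences were 0.66 (adjusted p = 0.0013) from floxed and 0.51 (adjusted p = 0.00351) from induced cells. Null array 3 exceeded floxed array 3 by 0.26 within slide 2 (adjusted p = 0.521 with slide as a block), and on slide 3 null arrays exceeded induced arrays by 0.55 (adjusted p = 0.00635).

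Dnajb9 (ERdj4), a J-domain cochaperone of BiP that is strongly induced by spliced Xbp1 in many cells, did not separate the groups. The brighter probe read 0.19, 0.02 and -0.27 on null arrays, 0.07, 0.19 and -0.12 on induced arrays and -0.09, -0.09 and 0.17 on floxed arrays. All groups overlapped, and the null values spread most. Null minus floxed was -0.02 (-0.34 to 0.31, adjusted p = 0.96) and null minus induced -0.07 (-0.39 to 0.26, adjusted p = 0.812). The second probe gave 0.06 and -0.14 for the same differences. For the brighter probe, null array 3 minus floxed array 3 was -0.44 within slide 2, the largest such difference in size among the members. Within slide 3 the null minus induced difference was 0.06.

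**Figure D2:**
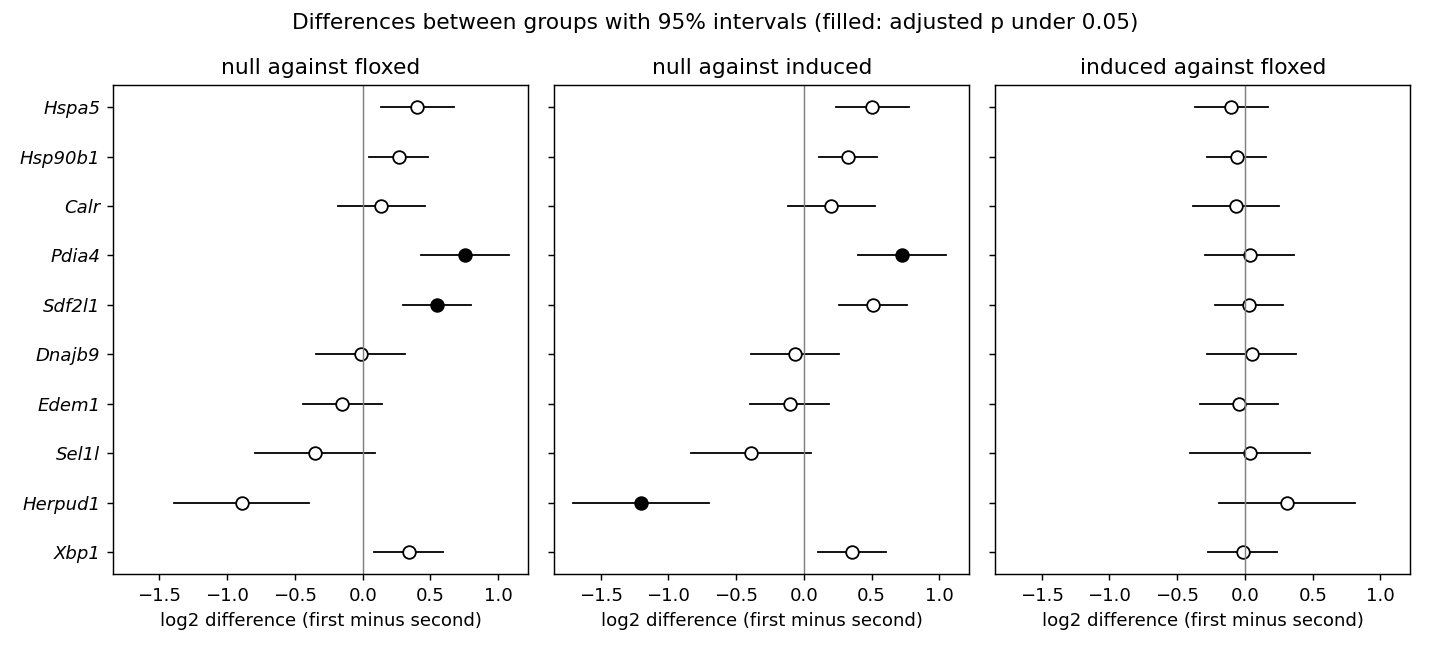
Difference of group means for each gene (log2, first group minus second) with its 95% interval in the 3 comparisons, filled where the adjusted p is under 0.05. Chaperones and cofactors lie to the right of 0 in both null comparisons except Dnajb9, Herpud1 lies farthest to the left, and every interval of induced against floxed includes 0.

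Of the 3 members that act in ERAD, the removal of misfolded proteins from the ER to the proteasome, Herpud1 stood out. Herpud1 (Herp) organises the retrotranslocation complex, and it is known to respond to Atf6 and also to the Perk and Atf4 branch. It read 1.12, 1.01 and 1.13 on null arrays, 2.45, 2.17 and 2.25 on induced arrays and 2.24, 2.31 and 1.39 on floxed arrays. Null arrays were the lowest, induced arrays and floxed arrays 1 and 2 formed a narrow upper range, and floxed array 3 lay between, nearer to the null arrays. Means were 1.09 ± 0.06 in null, 2.29 ± 0.15 in induced and 1.98 ± 0.51 in floxed cells (SD, n = 3 each).

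Herpud1 fell by 1.20 in null against induced cells (interval -1.70 to -0.70, 0.434-fold, adjusted p = 0.0363). Against floxed cells its difference of -0.89 (-1.39 to -0.39, 0.538-fold) did not pass (adjusted p = 0.0799), and without floxed array 3 it was -1.19 (adjusted p = 0.000358). Leaving out any 1 null or induced array ended the call against induced cells, with differences of -1.26 to -1.12 and adjusted p of 0.0861 to 0.136. Null array 3 was 0.27 below floxed array 3 on slide 2 (-0.27, adjusted p = 0.666 with slide as a block), while on slide 3 the null minus induced difference was -1.22 (adjusted p = 0.00168).

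Sel1l, the scaffold of the Hrd1 ubiquitin ligase, read -0.91, -0.99 and -1.07 on null arrays, -0.63, -0.52 and -0.66 on induced arrays and -0.57, -0.23 and -1.12 on floxed arrays. Null arrays were below all induced arrays but overlapped the floxed group, in which array 3 was the lowest of all 9. The differences of -0.35 from floxed (-0.80 to 0.09, adjusted p = 0.309) and -0.39 from induced cells (-0.83 to 0.05, adjusted p = 0.259) did not pass. Once floxed array 3 was left out they were -0.59 (adjusted p = 0.0107) and -0.39 (adjusted p = 0.043), and null array 3 was 0.05 above floxed array 3 within slide 2, the opposite sign.

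Edem1, a lectin that hands misfolded glycoproteins to ERAD, read 0.67, 0.23 and 0.42 on null arrays, 0.64, 0.48 and 0.51 on induced arrays and 0.61, 0.70 and 0.45 on floxed arrays. The groups overlapped. Its differences of -0.15 from floxed cells (-0.44 to 0.14, adjusted p = 0.508) and -0.10 from induced cells (-0.40 to 0.19, adjusted p = 0.645) were within the spread of the arrays.

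Xbp1, the transcription factor of the Ern1 branch, is itself a known target of Atf6. Its probe read 4.13, 4.18 and 3.93 on null arrays, 3.76, 3.66 and 3.75 on induced arrays and 3.82, 3.84 and 3.56 on floxed arrays. Null arrays were the upper 3, and floxed array 3 was the lowest of all, so here it lay away from the null group. Null cells were 0.34 above floxed (0.09 to 0.59, 1.27-fold, adjusted p = 0.13) and 0.36 above induced cells (0.10 to 0.61, 1.28-fold, adjusted p = 0.114). Within slide 2 null array 3 was 0.37 above floxed array 3, the highest such value of the members, and within slide 3 it was 0.43 (adjusted p = 0.0159 with slide as a block). Leaving out floxed array 3, the difference from floxed cells was 0.25 (adjusted p = 0.102) and that from induced cells passed at 0.36 (adjusted p = 0.0291). One probe gives the sum of the transcripts it matches, so splicing of Xbp1 was not analysed here.

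The 3 sensors did not pass in any comparison. Ern1 lay between -1.35 and -0.90 on null, -1.19 and -1.05 on induced and -1.34 and -1.05 on floxed arrays, with a null minus floxed difference of 0.01 (adjusted p = 0.959). Atf6 read -1.80, -2.17 and -2.51 on null arrays, -1.77, -1.63 and -1.72 on induced arrays and -1.55, -1.58 and -2.31 on floxed arrays, so it was lower on each null array than on any induced array. Its difference was -0.34 from floxed (adjusted p = 0.396) and -0.45 from induced cells (adjusted p = 0.265). Eif2ak3 read 0.68, 0.49 and 0.52 on null arrays, 0.53, 0.51 and 0.50 on induced arrays and 0.25, 0.45 and 0.39 on floxed arrays. It was thus lower on each floxed array than on any other array. Its null mean was 0.20 above that of floxed cells (adjusted p = 0.242) and 0.05 above that of induced cells (adjusted p = 0.778). Induced cells exceeded floxed cells by 0.15 (adjusted p = 0.949). Over all 13 measured sensors and transducers 0 passed in either comparison of null cells, and the medians were 0.05 and -0.03. When floxed array 3 was left out, 1 of the 13 rose and 3 fell against floxed cells, where 24.9% of all genes passed, and 2 fell against induced cells, where 18.2% passed.

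The Atf4 branch was set beside these genes with a list of 45 regulators and targets, chosen with earlier results of these data known, of which 42 were tested. Against floxed cells 6 of 42 fell and 0 rose in null cells, with a median of -0.78, where 1.84% of all genes passed. Against induced cells 10 of 42 fell and 0 rose, with a median of -0.92, where 2.21% of all genes passed, and in induced against floxed cells 0 passed, with a median of 0.11. The members' medians in those comparisons were 0.20, 0.27 and 0.01. Values of the list did not overlap for 22 of 42 genes between null and floxed cells (21 lower), against 23.6% of all genes, and for 37 of 42 between null and induced cells (34 lower), against 37.1% of all genes.

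Atf4 itself read 5.37, 5.48 and 5.42 on null arrays, 7.08, 6.64 and 6.80 on induced arrays and 7.01, 7.12 and 6.08 on floxed arrays. Null arrays were the lowest, and floxed array 3 lay between them and the rest. Atf4 fell by 1.31 against floxed (adjusted p = 0.0401) and differed by -1.41 from induced cells, also a fall (adjusted p = 0.0329), calls that rest on few arrays. Leaving out any 1 array but floxed array 3 ended the first (-1.34 to -1.12, adjusted p 0.0594 to 0.155), and any 1 null or induced array ended the second (-1.51 to -1.29, adjusted p 0.0827 to 0.124). Without floxed array 3 the differences were -1.64 (adjusted p = 0.000244) and -1.41 (adjusted p = 0.000499), and within slide 2 the difference was -0.66.

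Other targets of Atf4 had larger differences. Chac1, which degrades glutathione, read 0.01, -0.26 and 0.06 on null arrays, 3.35, 2.96 and 3.07 on induced arrays and 3.58, 3.53 and 0.68 on floxed arrays. It fell by 3.19 against induced cells (adjusted p = 0.0464), and its difference of -2.66 from floxed cells did not pass (adjusted p = 0.0799). Nupr1, a small stress-induced chromatin protein, fell by 3.22 against induced cells (adjusted p = 0.0458). Slc6a9, a glycine transporter, changed by -1.68 against floxed (adjusted p = 0.0473) and -1.93 against induced cells (adjusted p = 0.0321). Vldlr, a lipoprotein receptor above background on 1 null array, changed by -2.22 and -2.24 (adjusted p = 0.0369 and 0.0362). Leaving out any 1 null or induced array ended the calls of these 4 genes against induced cells (adjusted p 0.0738 to 0.161), and any 1 array but floxed array 3 ended those of Slc6a9 and Vldlr against floxed cells (adjusted p 0.0636 to 0.178). Chac1 differed from floxed cells by -3.62 without floxed array 3 and Nupr1 by -3.71 (adjusted p = 3.08e-05 each).

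Atf3, a stress-induced factor also above background on 1 null array, changed by -1.92 against floxed (adjusted p = 0.00771) and -1.64 against induced cells (adjusted p = 0.0184). The first of these calls ended without null array 2 (-1.87, adjusted p = 0.0513) and the second without null array 2 or any 1 induced array (-1.71 to -1.51, adjusted p 0.062 to 0.0849). Ddit3 (Chop), the factor that links ER stress to cell death, read -1.76, -1.67 and -1.36 on null arrays, 0.62, 0.25 and 0.07 on induced arrays and 0.95, 1.08 and -1.39 on floxed arrays, so floxed array 3 lay among the null values. Its differences of -1.81 (adjusted p = 0.117) and -1.91 (adjusted p = 0.103) did not pass, nor did those of Trib3, a pseudokinase that curbs Atf4, at -1.50 and -1.74 (adjusted p = 0.132 and 0.0977), or of asparagine synthetase, Asns, at -1.32 and -1.21 (adjusted p = 0.0783 and 0.0862). All 3 passed in both comparisons without floxed array 3, with differences of -2.61 and -1.91 for Ddit3, -2.22 and -1.74 for Trib3 and -1.77 and -1.21 for Asns.

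**Figure D3:**
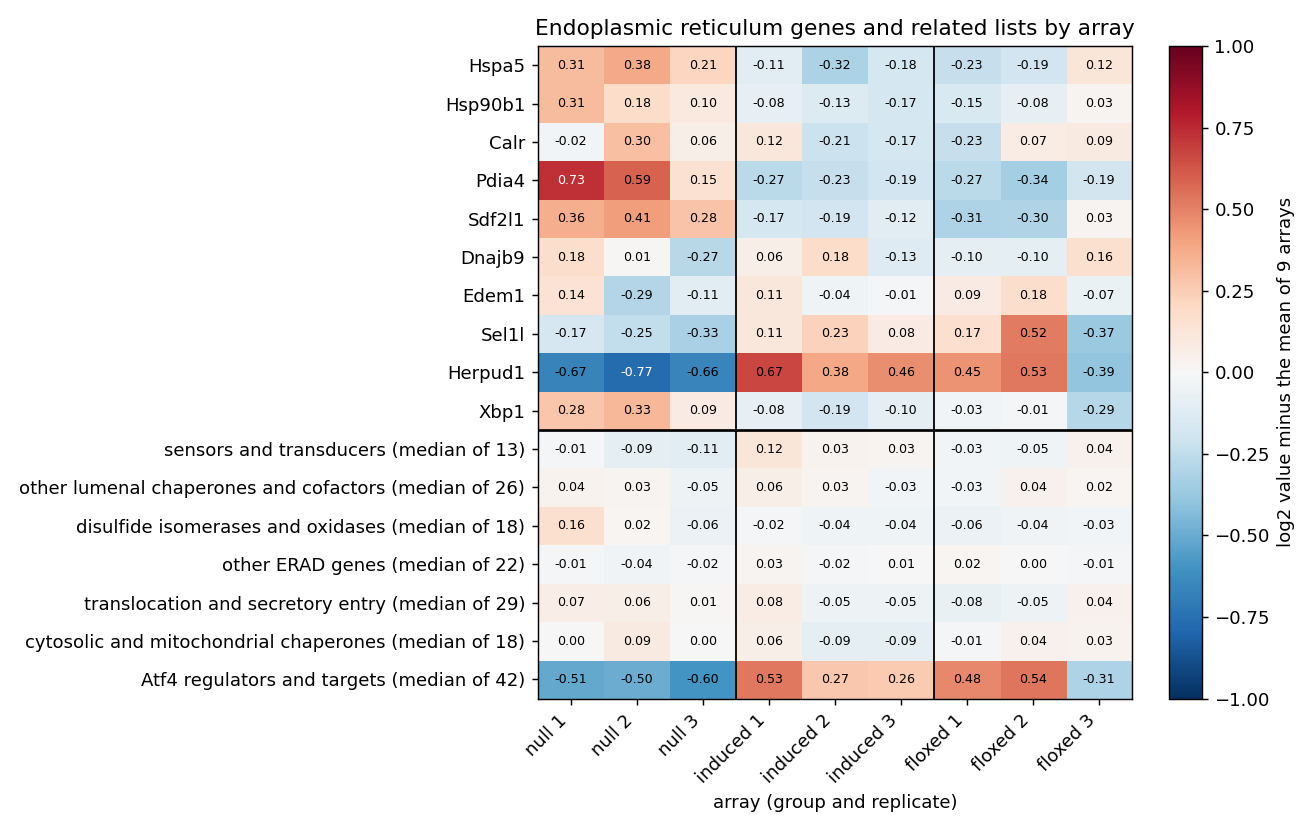
Each gene and the median of each list on each of the 9 arrays, as log2 value minus its mean over the 9 arrays (red higher, blue lower). The Atf4 row is low on the null arrays and on floxed array 3, Herpud1 and Sel1l follow a like pattern, and Hspa5, Hsp90b1, Pdia4, Sdf2l1 and Xbp1 are high on the null arrays.

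On the null arrays the median of the members and that of the Atf4 list lay on opposite sides of 0. The median of the Atf4 list, each gene centred on its mean over the 9 arrays, was -0.51, -0.50 and -0.60 on null arrays, 0.53, 0.27 and 0.26 on induced arrays and 0.48, 0.54 and -0.31 on floxed arrays. The median of the members was 0.23, 0.24 and 0.07 on null arrays, -0.01, -0.16 and -0.12 on induced arrays and -0.12, -0.04 and -0.02 on floxed arrays. Floxed array 3 was 0.84 below the other floxed arrays on the Atf4 list and 0.13 above them on the members. On single members it was 0.88 below them on Herpud1 and 0.72 below on Sel1l, 0.33 above on Hspa5 and on Sdf2l1, and 0.27 below on Xbp1.

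Without floxed array 3 the Atf4 list had 32 falls and 1 rise against floxed cells (median -1.02) and 32 falls and 1 rise against induced cells (median -0.92), beside 4 rises and 2 falls, and 5 rises and 2 falls, among the 10 members, where 24.9% and 18.2% of all genes passed. With slide as a block 0 of the list passed between null and floxed cells (median -0.17), where 0.251% of all genes passed. Between null and induced cells 30 of the list fell and 1 rose (median -0.90), where 16.2% of all genes passed. The member medians in the same fit were 0.056 and 0.30. Between induced and floxed cells the blocked fit, in which no slide holds both groups, gave 5 rises of the list and a median of 0.54. The members had a median of -0.28 and no call, and of all 19909 genes 113 rose and 57 fell.

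Other genes of the ER were taken from lists chosen with earlier results of these data known, and their counts stand beside 1.84% of all genes passing against floxed and 2.21% against induced cells. Of 26 other lumenal chaperones and cofactors 0 passed between null and floxed cells (median 0.02), and 1 fell between null and induced cells (median -0.02). That gene was Cnpy2, a saposin-like ER protein, with 3.78, 3.88 and 3.96 on null arrays, 4.61, 4.38 and 4.54 on induced arrays and 4.60, 4.63 and 4.24 on floxed arrays. It fell by 0.64 against induced cells (adjusted p = 0.0436), a call that ended without any 1 array but floxed array 3 (-0.70 to -0.59, adjusted p 0.0531 to 0.154), and differed by -0.61 from floxed cells (adjusted p = 0.0526). Hyou1 (Grp170), the nucleotide exchange factor of BiP and a known Atf6 target, was 0.18 above floxed (adjusted p = 0.355) and 0.10 above induced cells (adjusted p = 0.624), with overlapping groups.

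Neither the 18 disulfide isomerases and oxidases (medians 0.03 and 0.08), nor the 22 other ERAD genes (-0.03 and -0.01), nor the 29 genes of translocation and secretory entry (0.11 and 0.03) held a gene that passed in either comparison of null cells. Single differences in these 3 lists reached from -0.47 to 0.81 against floxed and from -0.50 to 0.58 against induced cells. Without floxed array 3, against floxed cells, 3 disulfide isomerases and oxidases rose and 0 fell, 3 other ERAD genes rose and 2 fell, 5 genes of translocation and secretory entry rose and 1 fell, and 5 other lumenal chaperones and cofactors rose and 2 fell, where 24.9% of all genes passed.

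Outside the ER, 1 of 18 cytosolic and mitochondrial chaperones passed, Hsph1 (Hsp110), a nucleotide exchange factor of cytosolic Hsp70 under control of Hsf1. It read 4.61, 4.68 and 4.50 on null arrays, 4.00, 3.91 and 3.95 on induced arrays and 3.97, 4.02 and 4.07 on floxed arrays. Null arrays were clearly apart from the others, and floxed array 3 lay with its group. Hsph1 rose by 0.58 over floxed (adjusted p = 0.0201) and by 0.65 over induced cells (adjusted p = 0.0123). Both calls ended without null array 1 or 2 or induced array 2 or 3, and the first also without floxed array 1 or 2 (0.54 to 0.64, adjusted p 0.0505 to 0.101). Medians of that list were 0.02 in both comparisons, where 1.84% and 2.21% of all genes passed. Without floxed array 3, 2 of the 18 rose and 0 fell in each comparison, where 24.9% and 18.2% of all genes passed.

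**Figure D4:**
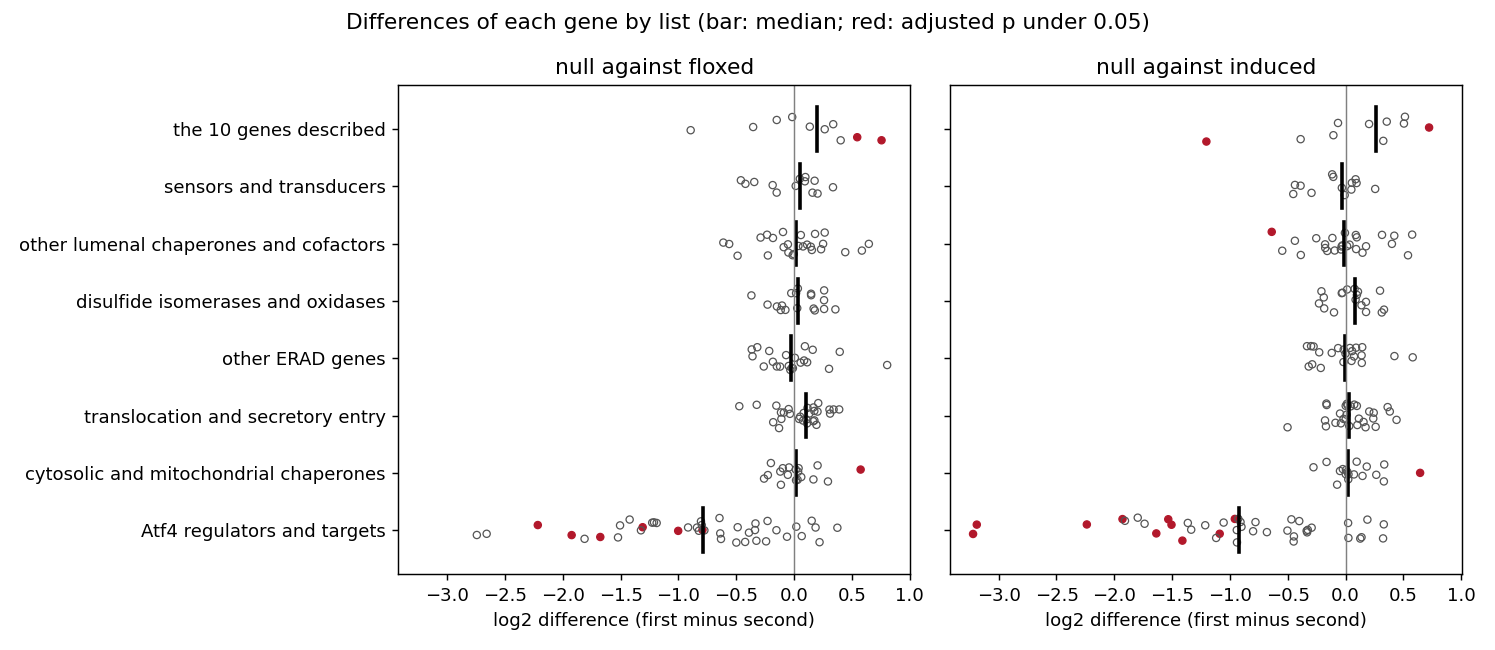
Difference of each gene (log2, open point, red where the adjusted p is under 0.05) by list for null against floxed and null against induced cells, with the list median as a bar. The Atf4 list has its medians at -0.78 and -0.92 and the 10 members at 0.20 and 0.27, while the medians of the other lists plotted lie between -0.03 and 0.11. Cell type marker lists are not plotted.

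Markers of other cell types also moved with the null group, where 1.84% of all genes passed against floxed and 2.21% against induced cells. Without floxed array 3 those shares were 24.9% and 18.2%. Of 9 tested fibroblast markers 6 fell against floxed and 6 against induced cells (medians -2.07 and -1.46), among them Acta2, smooth muscle actin, at -3.55 and -2.81. The other direction was held by Thy1, a surface glycoprotein, at 1.37 and 1.34 (adjusted p = 0.103 each) and Fbln1, fibulin 1, at 0.30 and 0.28 (adjusted p = 0.267 and 0.281), and without floxed array 3 the list had 7 falls and 2 rises in each comparison. Their summed level, in units of each array's 75th percentile, was 10.6 to 12.4 on null, 21.7 to 29.4 on induced and 32.0 to 38.2 on floxed arrays. Of 13 listed, Postn, Lum and Pdgfrb were above background on no array. Twist2, among the falls, was above background on 0 null arrays, so its differences were measured against levels near background. Leaving out 1 array ended the calls of Col1a2, for 3 of 9 arrays against floxed and 5 of 9 against induced cells. Of 9 tested trophectoderm markers 6 fell against floxed and 4 against induced cells (medians -1.42 and -0.98). The keratin Krt18 was among them at -1.85 and -1.37, and its second call ended without null array 1 or 2 or induced array 1 or 3 (adjusted p 0.0575 to 0.067). Leaving out 1 of the 9 arrays also ended the calls of Hand1 (5 arrays), Cdx2 (3) and Krt8 (3) against induced cells. Against floxed cells it ended those of Gata3 (7) and Hand1 (2). Cdx2 was above background on 0 null arrays and Hand1, whose value is the median of -1.42, and Gata3 on 1 each. These markers passed the filter through the other groups, and their differences were measured against levels near background. In each comparison 2 of the 9 trophectoderm markers were higher in null cells, by up to 0.45 against floxed and 0.71 against induced cells. Without floxed array 3 the list had 7 falls and 1 rise in each comparison, and Elf5 was above background on no array. The summed trophectoderm level was 37.8 to 41.2 on null, 69.6 to 95.7 on induced and 79.9 to 118 on floxed arrays. Such sums are weighted to bright probes, such as Tagln among the fibroblast markers and Krt18 and Krt8 among the trophectoderm markers.

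Primitive and visceral endoderm, cells with a large secretory load, was checked with 16 markers. Gata6, Sox17, Foxa2, Pdgfra, Afp, Ttr and Apoa1 were above background on no array. Of 8 markers tested Col4a1 and Col4a2 fell against both other groups, where 1.84% (floxed) and 2.21% (induced) of all genes passed. Leaving out any 1 array but floxed array 3 ended both calls of Col4a1 (-0.79 to -0.61, adjusted p 0.0519 to 0.172). The other 6 markers were higher in null than in floxed cells, by up to 0.59, without passing. Against induced cells 4 of the 8 were higher and 4 lower in null cells. The list medians were 0.12 against floxed and 0.06 against induced cells. With floxed array 3 left out 2 markers rose and 2 fell against floxed cells, where 24.9% of all genes passed. The summed level of that list ran from 132 to 158 on null, 128 to 135 on induced and 122 to 172 on floxed arrays. The summed level of the 10 members was 134 to 150 on null, 109 to 122 on induced and 112 to 126 on floxed arrays. That sum is weighted to the brightest probes, those of Hspa5, Hsp90b1, Calr and Xbp1 (null means 5.67, 5.52, 4.45 and 4.08), so the dimmer members hardly count in it. The part of other cell types in the members' differences was not tested.

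Among the members the values spread unequally. Over the 9 arrays Herpud1 covered a range of 1.44 and Pdia4 of 1.07, whereas Dnajb9, Edem1 and Hsp90b1 covered 0.46, 0.47 and 0.48. The mean of the 10 centred profiles ran from -0.09 on floxed array 3 to 0.15 on null array 1, and Herpud1 lay farthest from it (root mean square difference 0.60) and Hsp90b1 nearest (0.12). Of 13057 other named genes compared over the 9 arrays, Smo, Usp10, Nup54, Pex5 and Wdr5 were nearest to that mean profile, with root mean square differences of 0.03 each. The mean profile is nearly flat, since Herpud1 and Sel1l ran against the chaperones, and the 5 genes are given as a description.

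**Figure D5:**
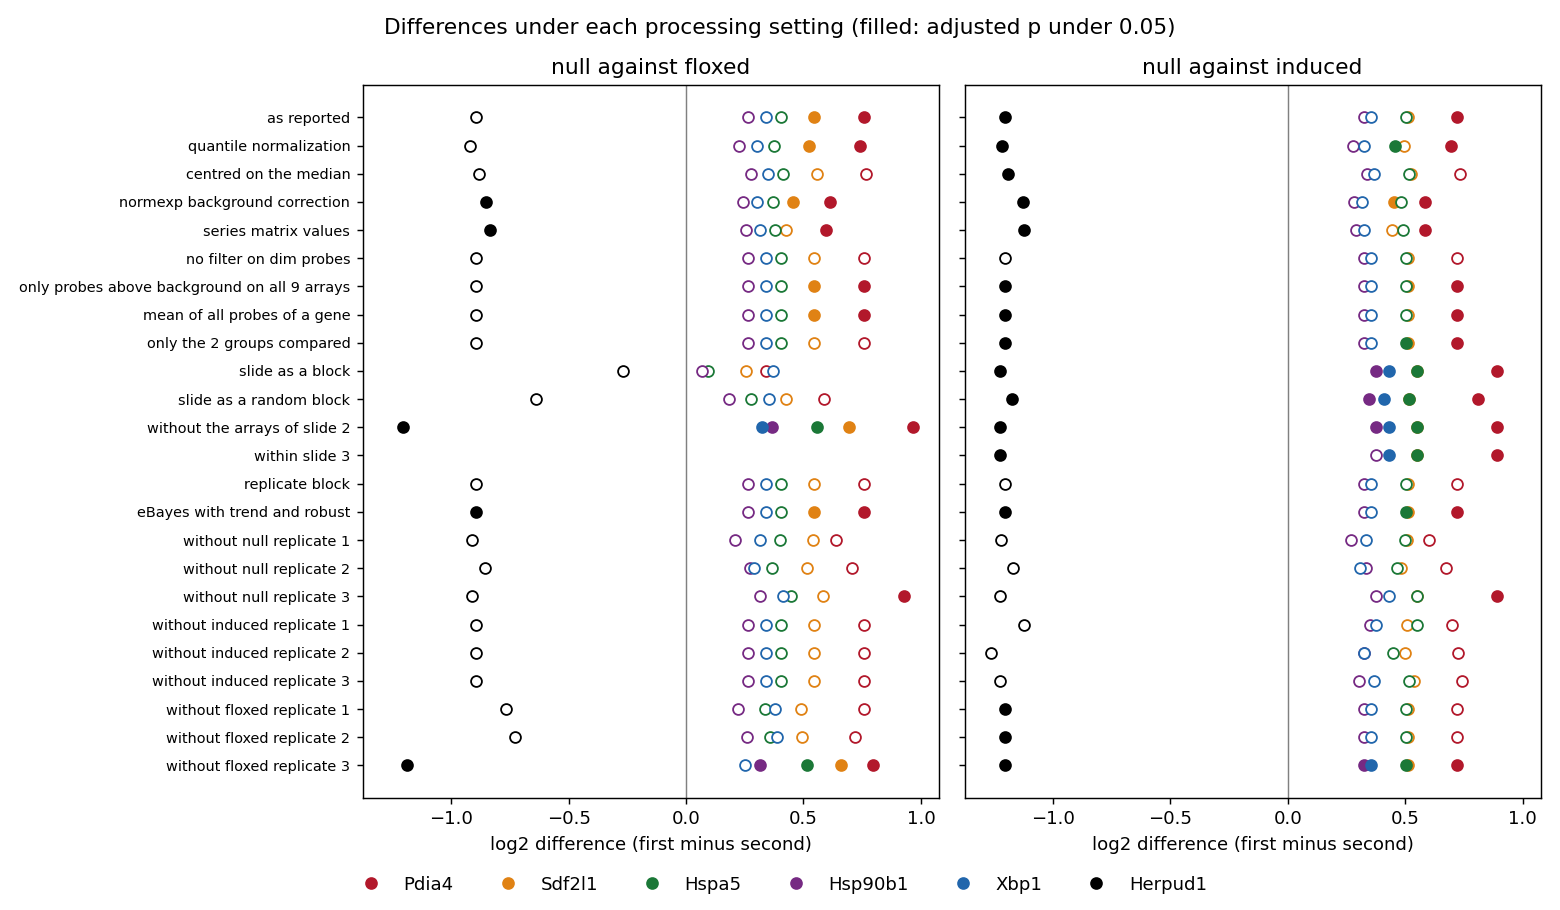
Log2 difference of 6 members (colours) under each processing setting (rows) for null against floxed and null against induced cells, filled where the adjusted p is under 0.05. All 6 keep their side of 0 in every row. More points are filled without floxed array 3 and without slide 2, none for null against floxed with slide as a block, and the row within slide 3 has no floxed array.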

How the data were processed

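Total RNA of 9 samples (50 ng each) was labelled with Cy3 and hybridised to 1-colour Agilent arrays. The authors deposited scanner output of Agilent Feature Extraction 10.7.3.1 (per the submitters' processing notes), which gives linear spot intensity. Its processed signal, used here, is background-subtracted and not scaled between arrays, per the file headers. Other deposited values used were the authors' spot flags (other yes-or-no values per the file headers) and the series matrix, whose intensity equals the mean signal for 100% of values.

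Spots of a probe were averaged without outlier spots, and log2 of the processed signal minus log2 of the array's 75th percentile was taken. Probes were kept where some group had all 3 arrays well above background, and the brightest probe stood for a gene, which gave 19909 genes. Of 55681 probes 27235 were named through their RefSeq accession (GRCm38.p6). Groups followed the labels. Null, induced and floxed means were fitted over all 9 arrays with limma 3.58.1 in R 4.3.3 (lmFit, eBayes). The 10 members and all lists were chosen with earlier results of these data known. Named beside the members are up to 4 passing genes per list and direction, Ern1, Atf6, Eif2ak3, Hyou1, Atf4, Atf3, Ddit3, Trib3, Asns and Chac1, Xpc, and the 5 genes nearest to the members' mean profile. The steps were tested on simulated data with independent noise on each array. Those data had no slide effect and no outlying array, so the test does not cover these. Alternatives covered background correction, scaling, the filter, slides, a replicate block and leaving out each array. Protein sequences were not analysed here.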

Additional observations from a re-analysis of the deposited data

How the results depend on the processing

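With 3 arrays a group the counts of calls moved with most settings, while no member's direction reversed past the threshold. Of the members, Xbp1, Hspa5, Herpud1, Sdf2l1, Hsp90b1, Pdia4 and Edem1 kept their sign in all 22 alternatives for null against floxed cells and in all 23 for null against induced cells, Calr and Sel1l did so except with slide as a block against floxed cells, and Dnajb9 in 17 of 22 and 18 of 23. The replicate numbers did not pair the samples: deviations from the group means correlated between -0.11 and 0.09 in 9 pairs of same-numbered arrays. With a replicate block 161 genes passed for null against floxed and 188 for null against induced cells, with 0 members in each. Slide and group are partly confounded, so blocked values rest on few arrays.

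Genes past the threshold for null against floxed cells, 366 as reported, were 561 with normexp, 73 without the filter, 81 with only the 2 groups, 50 with slide as a block, 102 as a random block (correlation 0.51), 4988 without slide 2, 936 with trend and robust eBayes, and 79 to 4951 when 1 array was left out, the most without floxed array 3. For null against induced cells, 440 as reported, they were 63 without the filter, 2770 with only the 2 groups and 3227 with slide as a block. They were 1781 with slide as a random block, 3227 without slide 2 and 2468 within slide 3. With trend and robust eBayes 893 passed, and 61 to 3627 with 1 array left out. For induced against floxed cells, 1 as reported, they were 14 when centred on the median, 170 with slide as a block, 126 without slide 2, 0 to 156 with 1 array left out, and 0 with quantile normalization, normexp, the series matrix, no filter, only probes above background on all 9 arrays, a random block or trend and robust eBayes. Centring on the median lowered the share of higher calls from 41.3% to 28.2% for null against floxed cells.

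Members past the threshold for null against floxed cells, 2 as reported, were 0 when centred on the median, without the filter, with 2 groups and with slide as a block or random block, 7 without slide 2 and 0 to 6 with 1 array left out. For null against induced cells, 2 as reported, they were 1 when centred on the median, 0 without the filter, 5 with 2 groups or within slide 3, 6 with slide as a block, as a random block or without slide 2, 4 with trend and robust eBayes and 0 to 7 with 1 array left out. The member median for null against floxed cells was 0.056 with slide as a block, and for induced against floxed cells -0.28 with slide as a block and -0.12 as a random block.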
